A study of Mus musculus with 18 samples.

Results

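The genes described here are 7 interferon-stimulated restriction factors of the mouse: Mx1 and Mx2 of the Mx family, Ifitm1, Ifitm2, Ifitm3 and Ifitm6 of the interferon-induced transmembrane (IFITM) family, and Bst2, which encodes tetherin. They were chosen by name from the 50600 genes of the deposited table, and all 7 passed the filter on low counts that left 16927 genes for testing. RNA came from whole subcutaneous B16F10 tumors, grown from a mouse melanoma line in C57BL/6 mice, and was sequenced 24 h after the last intratumoral (IT) injection. After 1 dose there were 5 groups: PBS, unloaded extracellular vesicles (EVs), exoCDN2 (0.1 µg), free CDN2 (20 µg) and free CDN2 (100 µg). After 2 doses given 3 days apart there were 4: PBS, exoCDN2 (0.1 µg), free CDN2 (20 µg), and free CDN2 whose label gives no amount. Each of the 9 groups held 2 tumors, 18 in all. CDN2 is a cyclic dinucleotide that activates STING, which answers the cyclic dinucleotide that cGAS makes on recognising DNA. In exoCDN2 the same agonist is loaded into EVs that were purified from the human HEK293 line.

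Type I interferons act through a receptor whose JAK kinases switch on genes that carry the interferon-stimulated response element (ISRE), while interferon-γ acts through the gamma-activated site (GAS). Mx proteins are dynamin-like GTPases that trap viral ribonucleoproteins, IFITM proteins sit in the plasma and endosomal membranes and hinder the fusion of enveloped viruses, and tetherin holds budding virions at the cell surface. C57BL/6 mice are known to carry a defective Mx1 allele, so the levels below are those of transcripts and not of working protein.

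The 4 Ifitm genes lie in 1 cluster on chromosome 7 of GRCm38, between 140954837 (the lower end of Ifitm2) and 141017924 (the upper end of Ifitm6). Bst2 lies on chromosome 8 at 71534255 to 71537456, and the Mx genes are neighbours on chromosome 16, Mx1 at 97447035 to 97462907 and Mx2 at 97535308 to 97560900. GENCODE lists Mx2 as a polymorphic pseudogene and the others as protein coding, and RefSeq lists both Mx genes as transcribed pseudogenes. RefSeq promoter windows (GRCm38.p6) were held for 5 of the 7 genes, with no entry for Mx1 or Mx2.

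The stretches before the start are shown for Bst2 and Ifitm2, because each holds the ISRE core (GAAA, any 2 bases, GAAA), and a short stretch just after the start is shown for Ifitm3, which holds the core there. Capitals mark the core. The Bst2 stretch is chr8:71537473-71537722, the Ifitm2 stretch chr7:140955988-140956211 and the Ifitm3 stretch chr7:141010716-141010742, all on the minus strand and printed 5′ to 3′ in the direction of the gene.
Bst2: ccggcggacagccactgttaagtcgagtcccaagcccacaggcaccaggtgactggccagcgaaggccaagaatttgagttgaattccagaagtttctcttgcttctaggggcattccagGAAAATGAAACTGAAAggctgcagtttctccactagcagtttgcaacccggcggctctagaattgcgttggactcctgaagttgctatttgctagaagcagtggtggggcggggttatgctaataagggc
Ifitm2: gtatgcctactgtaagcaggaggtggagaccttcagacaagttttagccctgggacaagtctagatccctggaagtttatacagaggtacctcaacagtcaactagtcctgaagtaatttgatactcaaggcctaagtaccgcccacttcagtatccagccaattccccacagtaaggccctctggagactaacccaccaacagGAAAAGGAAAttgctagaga
Ifitm3: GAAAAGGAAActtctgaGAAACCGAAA
Bst2 held 2 overlapping cores, at bases -130 to -121 and -124 to -115 from the start of transcription. Ifitm2 held 1 core at -46 to -37. Ifitm3 held none before the start and 2 after it, at bases 3 to 12 and 20 to 29. A GAS core (TTC, any 3 bases, GAA) lay at 14 to 22 of Ifitm3, where it overlaps the second ISRE core. No ISRE core was found in the windows of Ifitm1 and Ifitm6, searched on both strands, and a GAS core lay at -10 to -2 of Ifitm6 and at -136 to -128 of Bst2, where it overlaps the first ISRE core. These windows follow the RefSeq starts. GENCODE begins Ifitm1 farther out, at 140967221, and Ifitm6 at 141017924, and the bases before those positions were not searched. It also begins Ifitm2 and Ifitm3 farther out, at 140955987 and 141010770. The printed Ifitm2 stretch stops at its GENCODE start, so the core lies closer to that start than the quoted distance, which counts from the RefSeq start. Over all 32851 RefSeq promoters, 2.98% held the ISRE core and 7.02% the GAS core in the 250 bases before the start, and 3.44% and 8.30% in the whole window of 300 bases. These matches are letters in a window and were not tested for binding.

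**Figure D1:**
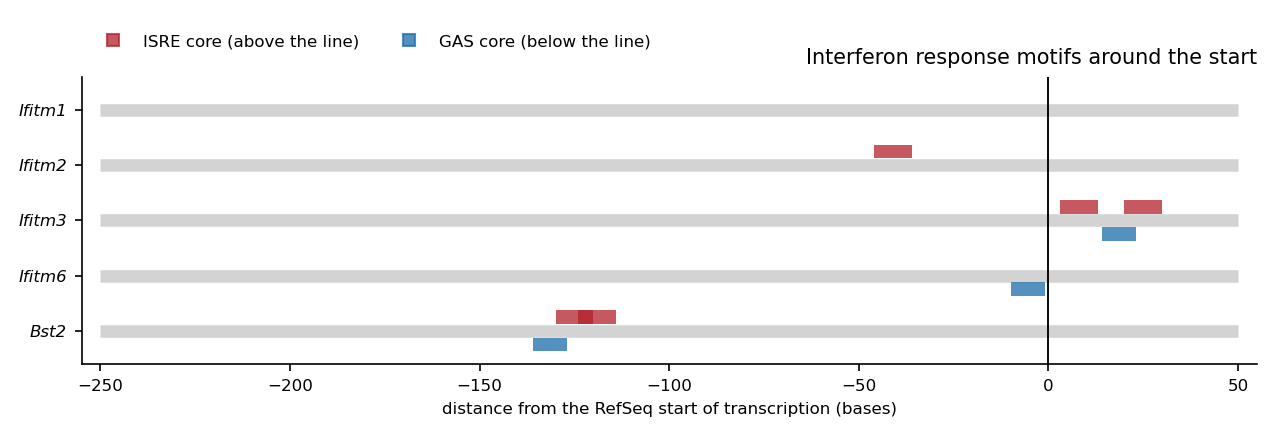
Positions of the ISRE core (red, above the line) and the GAS core (blue, below the line) in the RefSeq windows of 5 genes, by distance in bases from the start of transcription. Ifitm3 has its 2 ISRE cores after the start, Bst2 and Ifitm2 have theirs before it, and Ifitm1 has neither motif in its window.

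Libraries held 21608895 to 65983630 expected counts, and the smallest was tumor 1 of the group given 2 doses of CDN2 (20 µg). All 6 melanoma markers examined were detected in every group. The 2 tumors given 2 doses of CDN2 (20 µg) stood apart from the rest: their summed level of melanoma markers was 7213 and 12518 CPM (counts scaled to library size), against 14524 to 24516 CPM in the other 16, and their summed level of 7 neutrophil markers was 959.5 and 218.6 CPM, against 1.62 to 72.2 CPM. Skeletal muscle markers were also high in these 2 tumors, at 3367 and 1646 CPM. In bulk tumors, fewer cells of a type and less RNA per cell cannot be told apart, and the part of these mixtures in the results below was not tested. The labels do not say whether the samples of a group came from separate runs of the experiment, so p-values measure only the spread between these samples. Permuting 4 tumors exactly gives no p under 0.333, so every test below comes from a model fitted across all genes.

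Levels are given as CPM after TMM scaling, per kilobase of exons only where genes are set beside each other. Per kilobase, Ifitm3 had the widest reach of the abundant genes, from a group mean of 93.0 CPM per kb in PBS tumors given 2 doses to 2321 CPM per kb after 2 doses of CDN2 (20 µg). Bst2 ran from 57.2 to 1149 CPM per kb between the same 2 groups, and Ifitm2 from 203 to 662 CPM per kb. Mx1 and Mx2 started far lower, at 0.449 and 0.317 CPM per kb, and reached 62.3 and 42.6. Ifitm1 and Ifitm6 were the scarcest at their peaks, with 11.5 and 27.4 CPM per kb. Between its lowest and highest group Mx1 spanned 139-fold, Mx2 134-fold, Ifitm6 116-fold, Ifitm1 40.3-fold, Ifitm3 25.0-fold and Bst2 20.1-fold, whereas Ifitm2 spanned 3.27-fold.

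**Figure D2:**
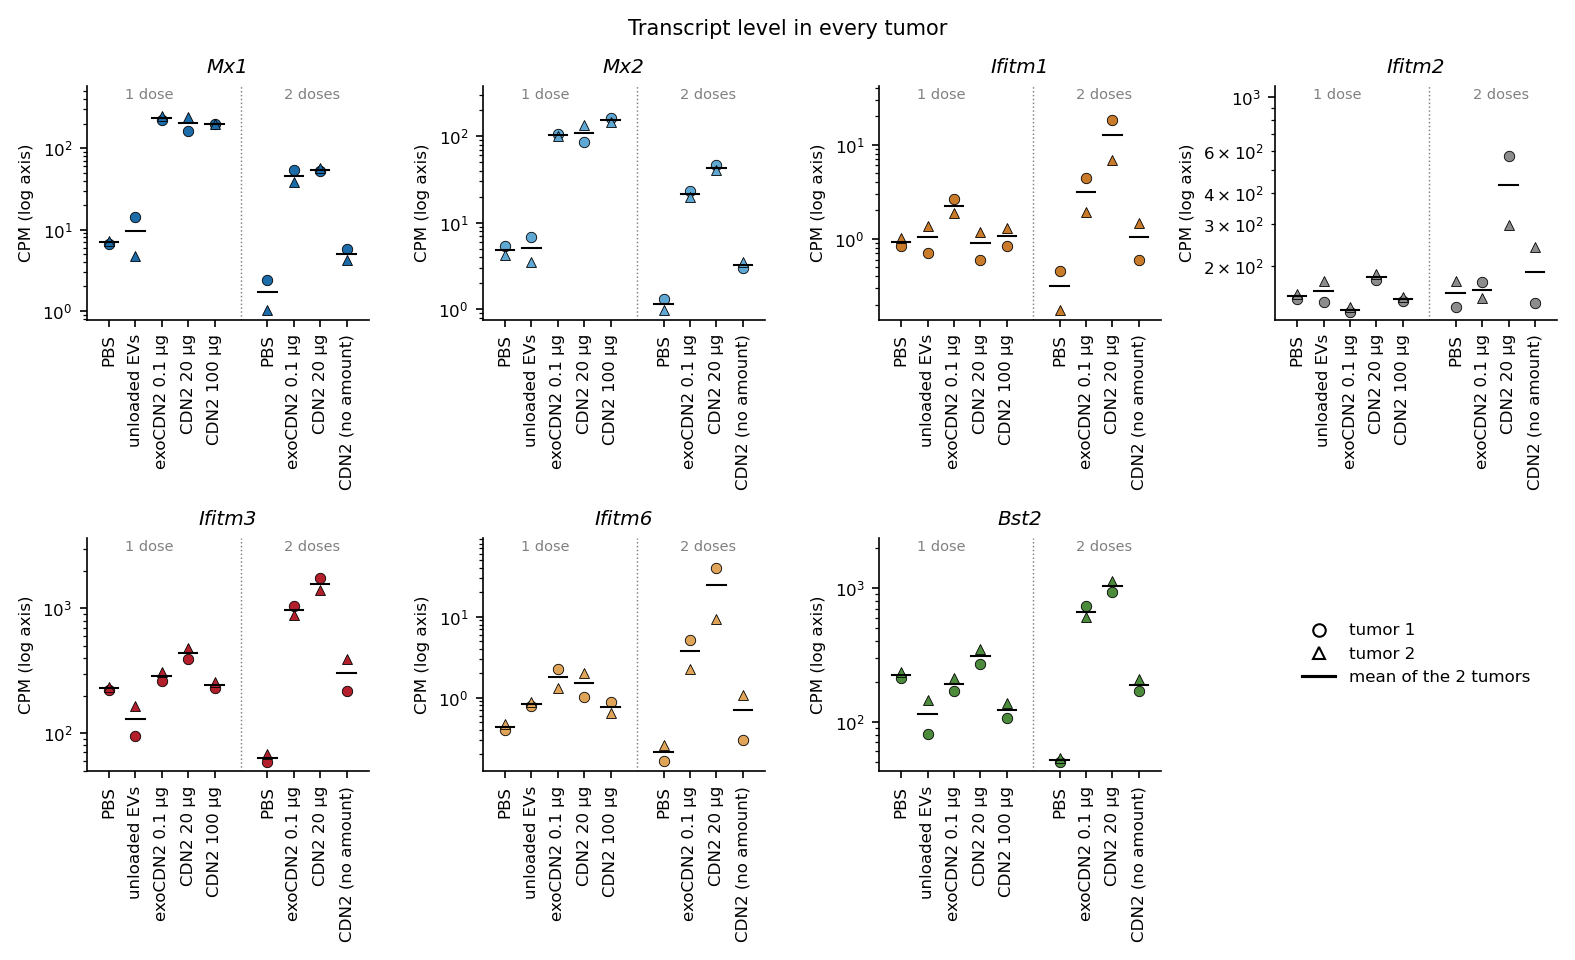
CPM of each gene in all 18 tumors (log axis), by treatment, with 1 dose left and 2 doses right of the dotted line. Circles and triangles are the 2 tumors of a group and bars are their mean. Mx1 and Mx2 are highest in the 3 CDN2 groups after 1 dose, and Ifitm3 and Bst2 in the exoCDN2 and CDN2 (20 µg) groups after 2 doses.

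The first comparison asked how a single IT dose of each agent changed the tumor. Mx1 and Mx2 rose with all 3 forms of CDN2, and no Ifitm gene, nor Bst2, met both limits of the test. Mx1 was at 6.67 and 7.25 CPM in the PBS tumors, and it was at 225 and 246 CPM after exoCDN2 (0.1 µg). It stood at 161 and 246 CPM after CDN2 (20 µg) and at 198 and 197 CPM after CDN2 (100 µg). All 6 CDN2 tumors were far above both PBS tumors, and the 3 CDN2 groups lay in 1 range. The log2 fold change of Mx1 against PBS was 5.08 (SE 0.50, adjusted p = 0.000132) for exoCDN2, 4.87 (SE 0.49, adjusted p = 0.000175) for CDN2 (20 µg) and 4.83 (SE 0.49, adjusted p = 0.000231) for CDN2 (100 µg), by the quasi-likelihood test of edgeR with Benjamini-Hochberg adjustment.

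Mx2 was at 5.43 and 4.30 CPM in PBS tumors, 105 and 102 CPM after exoCDN2, 85.7 and 134 CPM after CDN2 (20 µg), and 164 and 145 CPM after CDN2 (100 µg). Again no CDN2 tumor came near the PBS tumors, and the 2 tumors given 100 µg were the highest of all. Its log2 fold changes were 4.41 (SE 0.32, edgeR adjusted p = 2.5e-05), 4.50 (SE 0.32, edgeR adjusted p = 2.3e-05) and 4.99 (SE 0.33, edgeR adjusted p = 2.9e-05) in the same order. Genes are called changed if they differ more than 2-fold at an adjusted p under 0.05. By that rule 2 of the 7 genes were higher than PBS in each comparison, where 2.2% of all 16927 genes were higher with exoCDN2, 2.26% with CDN2 (20 µg) and 1.82% with CDN2 (100 µg). All 3 comparisons share the same PBS tumors. When PBS tumors of both dose numbers were pooled as control, the log2 fold changes of Mx1 rose to between 5.51 and 5.76.

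Ifitm3, the best studied IFITM protein and a resident of late endosomes, was at 220 and 236 CPM in PBS tumors after 1 dose. With CDN2 (20 µg) it was at 390 and 484 CPM, with exoCDN2 at 263 and 310 CPM, and with CDN2 (100 µg) at 232 and 258 CPM. The exoCDN2 and 20 µg tumors lay above both PBS tumors, and the 100 µg tumors overlapped them. The log2 fold change with 20 µg was 0.94 (SE 0.23, edgeR adjusted p = 0.042), a ratio of 1.92 that missed the limit of 2. It was 0.33 (SE 0.23, adjusted p = 0.56) with exoCDN2 and 0.10 (SE 0.23, adjusted p = 0.91) with 100 µg.

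Bst2 did not pass the test in any of these comparisons. Its CPM were 211 and 234 with PBS, 271 and 351 with CDN2 (20 µg), 169 and 212 with exoCDN2, and 107 and 139 with CDN2 (100 µg). The 100 µg tumors lay below both PBS tumors and the 20 µg tumors above them. The log2 fold changes were 0.48 (SE 0.25, adjusted p = 0.39), -0.23 (SE 0.25, adjusted p = 0.74) and -0.86 (SE 0.25, adjusted p = 0.11). With all PBS tumors pooled the value for exoCDN2 turned to 0.47.

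Ifitm2 differed little: it lay between 130.0 and 185 CPM in all 10 tumors given 1 dose, and its log2 fold change against PBS was 0.27 (SE 0.24, adjusted p = 0.67) with CDN2 (20 µg), -0.18 with exoCDN2 and -0.03 with CDN2 (100 µg). Reads of Ifitm2 are less certain than those of the others, since 42.0% of its 75-base windows also occur in other genes, Gm8865 among them, against 0% to 2.01% for the other members. Ifitm6, the least studied of the 4, was at 0.394 and 0.475 CPM in PBS tumors and at 2.28 and 1.33 CPM after exoCDN2, which is 115 and 58 counts. Both exoCDN2 tumors were above both PBS tumors, with a log2 fold change of 2.05 (SE 0.67) and an adjusted p of 0.14 that missed the threshold. The value passed when DESeq2 was used (2.09, adjusted p = 0.027), when only these 4 tumors were fitted (2.07, adjusted p = 0.0043) and when PBS tumors were pooled (2.47, adjusted p = 0.021). With CDN2 at 20 and 100 µg it was 1.79 (SE 0.68, adjusted p = 0.20) and 0.80 (SE 0.70, adjusted p = 0.70).

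Ifitm1, which acts mainly at the plasma membrane, was at 0.831 and 1.03 CPM in PBS tumors. After exoCDN2 it was at 2.62 and 1.86 CPM, above both, but the log2 fold change of 1.27 (SE 0.60, edgeR adjusted p = 0.33) missed the threshold, and it passed when only these 4 tumors were fitted (1.29, adjusted p = 0.0092). After CDN2 (20 µg) it was at 0.595 and 1.19 CPM, a range that held the PBS values, and its log2 fold change was -0.07 (SE 0.62), against 0.20 (SE 0.61) with 100 µg. Neutrophil markers summed to 67.2 and 40.8 CPM after exoCDN2, to 14.6 and 34.1 CPM after CDN2 (20 µg), to 15.2 and 18.9 CPM after CDN2 (100 µg) and to 5.10 and 5.27 CPM in PBS tumors. Fibroblast markers were also higher after exoCDN2 than with PBS (669 and 434 against 269 and 352 CPM), as were skeletal muscle markers (436 and 128 against 48.7 and 89.5). Macrophage markers were lower (187 and 188 against 280.5 and 365). The part of any list was not tested.

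Unloaded EVs served as the control for the vesicle. No member changed, and neither did any other gene (0% called by edgeR, 540 genes at an unadjusted p under 0.05). Other settings gave more calls over all genes, 36 by DESeq2 and 227 by edgeR without the filter on low counts, but still no member. Mx1 was at 14.3 and 4.75 CPM, which spread on both sides of the PBS values, and Mx2 at 6.81 and 3.52 CPM did the same. Bst2, at 81.0 and 146 CPM, and Ifitm3, at 94.9 and 165 CPM, were below PBS in both tumors. Their log2 fold changes were -0.97 (SE 0.25, edgeR adjusted p = 0.75) and -0.81 (SE 0.23, edgeR adjusted p = 0.90). Without the filter they were -0.98 (adjusted p = 5.1e-05) and -0.82 (adjusted p = 0.0018), past the limit on p but not that on the ratio. The log2 fold change was 0.46 for Mx1, 0.09 for Mx2, 0.14 for Ifitm1, 0.07 for Ifitm2 and 0.92 for Ifitm6.

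Against unloaded EVs, 3 of the 7 genes were higher with exoCDN2, where 2.52% of all genes were. The log2 fold change of Mx1 was 4.62 (SE 0.48, edgeR adjusted p = 0.00018) and that of Mx2 was 4.32 (SE 0.32, edgeR adjusted p = 1.1e-05). Mx1 rose to 5.63 without tumor 1 of the EV group, the higher of the pair. The third gene was Ifitm3, at 1.14 (SE 0.23, edgeR adjusted p = 0.017), and this call rested on single tumors: it was 0.79 (adjusted p = 0.090) without EV tumor 1 and 1.02 (adjusted p = 0.14) without exoCDN2 tumor 2. Bst2, at 0.75 (SE 0.25, adjusted p = 0.16), was not called with all tumors and was called without EV tumor 2, at 1.23 (adjusted p = 0.039). Ifitm1, at 1.12 (SE 0.60), Ifitm6, at 1.13 (SE 0.64), and Ifitm2, at -0.25 (SE 0.24), had adjusted p from 0.43 to 0.74.

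**Figure D3:**
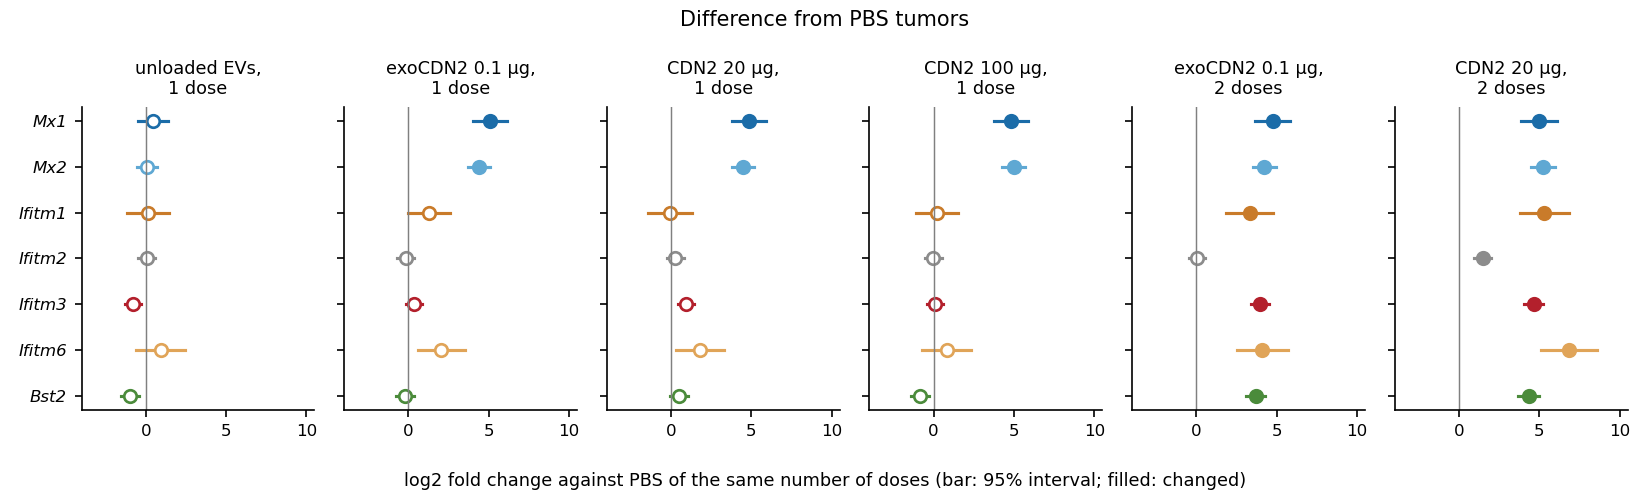
Log2 fold change of each gene against PBS tumors given the same number of doses, with its 95% interval. Filled points are called changed. After 1 dose of any CDN2 form only Mx1 and Mx2 are filled, whereas after 2 doses 6 genes are with exoCDN2 and 7 with CDN2 (20 µg).

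The same comparison was made with the PBS tumors given 2 doses. With CDN2 (20 µg) all 7 genes rose over the PBS tumors, and with exoCDN2 6 of 7 did, all but Ifitm2. These counts stand beside 20% and 8.87% of all genes that were higher in the 2 comparisons, which share their PBS tumors. Most markers of T cells, NK cells, monocytes and neutrophils were higher in the same tumors. With exoCDN2 5 of 6 T cell, 4 of 4 NK cell, 5 of 6 monocyte and 6 of 7 neutrophil markers were called higher than PBS, and with CDN2 5 of 6, 3 of 4, 5 of 6 and 7 of 7. T cell markers summed to 26.5 and 34.5 CPM with exoCDN2, to 7.68 and 7.91 CPM with CDN2 and to 0.854 and 1.82 CPM with PBS, and monocyte markers to 259 and 406, 236 and 624, and 27.1 and 41.4 CPM. Fibroblast markers, which are not of immune cells, summed to 981 and 435 CPM with exoCDN2, to 1823 and 856 CPM with CDN2 and to 352.0 and 352.4 CPM with PBS. B cell markers did not rise, at 0.818 and 1.03, 1.63 and 0.796, and 0.857 and 1.66 CPM in the same order. The part of any list in the rises of the 7 genes was not tested. Ifitm3 was at 58.7 and 67.4 CPM in the PBS tumors, at 1051 and 886 CPM with exoCDN2 and at 1740 and 1407 CPM with CDN2. The 3 groups did not overlap. Its log2 fold change was 3.94 (SE 0.26, edgeR adjusted p = 2.3e-06) with exoCDN2 and 4.65 (SE 0.27, edgeR adjusted p = 6.7e-07) with CDN2.

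Bst2 followed the same order, with 49.9 and 53.4 CPM in PBS tumors, 732 and 606 CPM with exoCDN2, and 932 and 1143 CPM with CDN2. Its log2 fold changes were 3.69 (SE 0.28, edgeR adjusted p = 7.2e-06) and 4.33 (SE 0.29, edgeR adjusted p = 2.4e-06). PBS tumors given 2 doses were low in both genes, so the choice of control matters. Against the PBS tumors of both dose numbers, Ifitm3 was higher by 2.74 and 3.44 on the log2 scale and Bst2 by 2.29 and 2.92, and all 4 values remained past the threshold.

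Mx1 was at 2.37 and 1.03 CPM in PBS tumors given 2 doses, 54.1 and 38.0 CPM with exoCDN2, and 51.8 and 56.5 CPM with CDN2 (20 µg). The treated groups overlapped each other and were both far above PBS. The log2 fold change was 4.75 (SE 0.50, edgeR adjusted p = 8.0e-05) with exoCDN2 and 4.99 (SE 0.51, edgeR adjusted p = 3.8e-05) with CDN2, and without PBS tumor 1 these became 5.48 and 5.70. Against pooled PBS tumors they were 3.41 and 3.65.

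Mx2 was at 1.31 and 0.985 CPM in the same PBS tumors, 23.4 and 19.6 CPM with exoCDN2, and 46.3 and 40.6 CPM with CDN2. All 3 groups were separate, and the free agonist gave the higher level. The log2 fold changes were 4.22 (SE 0.33, edgeR adjusted p = 8.8e-06) and 5.24 (SE 0.34, edgeR adjusted p = 2.0e-06), or 2.84 and 3.86 against pooled PBS tumors.

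The scarce genes were highest in the same group. Ifitm6 was at 0.163 and 0.263 CPM in PBS tumors, which is 8 and 12 counts, at 5.22 and 2.24 CPM with exoCDN2 and at 40.1 and 9.39 CPM with CDN2. The CDN2 tumors differed 4.27-fold between themselves, with tumor 1 the higher. Its summed CPM was also higher for markers of neutrophils (959.5 against 218.6), monocytes (624 against 236) and fibroblasts (1823 against 856). The same held for skeletal muscle (3367 against 1646) and plasmacytoid dendritic cell markers (179 against 112). Siglech, of the last list, was at 0 in a tumor of this pair. Tumor 1 was lower for markers of NK cells (1.63 against 5.89), T cells (7.68 against 7.91) and endothelium (53.4 against 87.3). It was also lower for red cell (816 against 1080) and melanoma markers (7213 against 12518). Log2 fold changes were 4.11 (SE 0.74, edgeR adjusted p = 0.0026) with exoCDN2 and 6.85 (SE 0.79, edgeR adjusted p = 7.8e-05) with CDN2. Without CDN2 tumor 1 the latter was 5.44, without CDN2 tumor 2 it was 7.50, and without exoCDN2 tumor 1 the former was 3.38 (adjusted p = 0.023).

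Ifitm1 was at 0.449 and 0.175 CPM with PBS, or 22 and 8 counts, at 4.42 and 1.90 CPM with exoCDN2 and at 18.4 and 6.77 CPM with CDN2. In each treated pair tumor 1 was the higher, and it was also the higher in neutrophil markers, at 72.2 against 23.6 CPM in the exoCDN2 pair. Several other lists were also higher in tumor 1 of that pair. Among them were T cell (34.5 against 26.5 CPM), NK cell (14.3 against 9.40), monocyte (406 against 259), macrophage (376 against 267) and fibroblast markers (981 against 435). Red cell (26.0 against 44.8 CPM) and melanoma markers (14524 against 15748 CPM) were lower. The part of any of these lists was not tested. The log2 fold change was 5.31 (SE 0.70, edgeR adjusted p = 0.00016) with CDN2, 4.41 without CDN2 tumor 1 and 6.11 without PBS tumor 1. With exoCDN2 it was 3.31 (SE 0.66, edgeR adjusted p = 0.0050). That call was lost without exoCDN2 tumor 1 (2.59, adjusted p = 0.051) and without PBS tumor 2 (2.80, adjusted p = 0.065), and the value was 4.15 without PBS tumor 1.

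Ifitm2 was at 137 and 174 CPM with PBS, 173 and 147 CPM with exoCDN2, and 572 and 295 CPM with CDN2. Only the CDN2 tumors left the range of the other 16, whose highest value was 239.8 CPM. Its log2 fold change was 1.49 (SE 0.25, edgeR adjusted p = 0.00060) with CDN2, and 0.92, a ratio under 2, without CDN2 tumor 1. With exoCDN2 the difference was 0.04, with a 95% interval from -0.48 to 0.57.

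**Figure D4:**
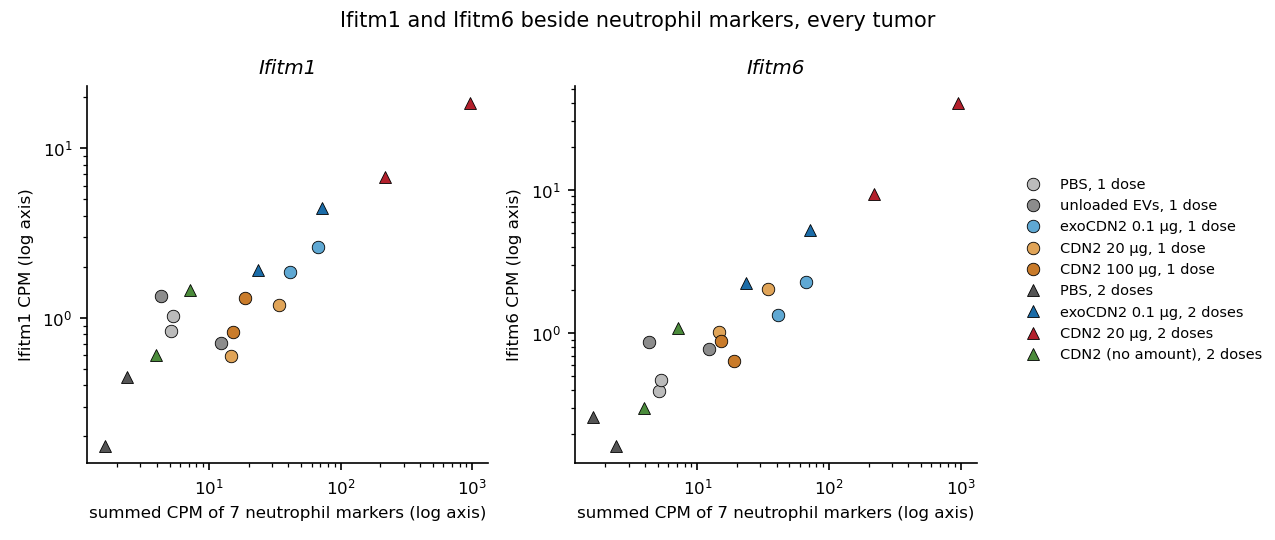
Ifitm1 (left) and Ifitm6 (right) in CPM against the summed CPM of 7 neutrophil markers in all 18 tumors, both axes logarithmic. The 2 tumors given 2 doses of CDN2 (20 µg) lie at the upper right, at 959.5 and 218.6 CPM of markers, and the PBS tumors given 2 doses at the lower left. The CDN2 (20 µg) tumors given 2 doses were also highest in skeletal muscle markers, at 3367 and 1646 CPM, which are not drawn.

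The next question was whether the vesicle form and the free form differed, at amounts of 0.1 and 20 µg. After 1 dose no member differed between exoCDN2 and CDN2 (20 µg), where 0.608% of all genes did. The log2 difference, exoCDN2 minus CDN2, was 0.21 for Mx1 (95% interval -0.69 to 1.11), -0.09 for Mx2 (-0.68 to 0.51), -0.61 for Ifitm3 (-1.11 to -0.11) and -0.71 for Bst2 (-1.26 to -0.16). The largest was that of Ifitm1, at 1.33 (0.0096 to 2.66, edgeR adjusted p = 0.25), with exoCDN2 the higher. For Ifitm6 it was 0.26 (-1.09 to 1.61) and for Ifitm2 -0.45 (-0.98 to 0.083). The intervals of Ifitm1, Ifitm3 and Bst2, which are not adjusted for the number of genes, leave out 0. Intervals of this width leave room for differences of 2-fold in several genes.

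After 2 doses 4 of the 7 genes were lower with exoCDN2 than with CDN2 (20 µg), where 12% of all genes were lower. Ifitm6 differed by -2.73 (SE 0.62, edgeR adjusted p = 0.0070), Ifitm1 by -1.99 (SE 0.58, edgeR adjusted p = 0.020), Ifitm2 by -1.44 (SE 0.25, edgeR adjusted p = 0.0024) and Mx2 by -1.02 (SE 0.28, edgeR adjusted p = 0.016). These calls hung on single tumors. None of the 4 was called without CDN2 tumor 1, when the values were -1.34, -1.11, -0.89 and -0.92, 1 was called without exoCDN2 tumor 2, and none when only these 4 tumors were fitted. Mx1 differed by -0.24 (95% interval -1.15 to 0.67), Ifitm3 by -0.71 (edgeR adjusted p = 0.032, under the limit of 2-fold) and Bst2 by -0.64 (adjusted p = 0.065).

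The higher amount of free CDN2 was compared with the lower after 1 dose. Bst2 alone changed, where 0.455% of all genes did, with a log2 difference of -1.34 (SE 0.26, edgeR adjusted p = 0.048) for 100 µg against 20 µg. It lost the call when any 1 of the 4 tumors was left out, with values from -1.55 to -1.15. Ifitm3 differed by -0.83 (SE 0.23, adjusted p = 0.11) and Mx2 by 0.49 (SE 0.27, adjusted p = 0.40). The others gave -0.99 (SE 0.66) for Ifitm6, -0.30 (SE 0.24) for Ifitm2, 0.27 (SE 0.62) for Ifitm1 and -0.04 (SE 0.41) for Mx1, with adjusted p from 0.48 to 0.97.

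Tumors given 2 doses were then set against those given 1. The 2 sets differ at least in the number of injections and in the days since the first, which cannot be told apart. The labels do not say whether the 2 sets were grown, collected or sequenced together. Mx1 and Mx2 were lower after the second dose of either agonist, whereas Ifitm3 and Bst2 were higher. With exoCDN2 4 of the 7 genes changed, where 7.44% of all genes did. Mx1 differed by -2.36 (SE 0.43, edgeR adjusted p = 0.0063) and Mx2 by -2.26 (SE 0.29, edgeR adjusted p = 0.0017), while Ifitm3 differed by 1.76 (SE 0.23, edgeR adjusted p = 0.0017) and Bst2 by 1.81 (SE 0.26, edgeR adjusted p = 0.0024). The call of Mx1 was lost by a small margin without tumor 1 of either group, at -2.42 and -2.63, each with an adjusted p of 0.052. The remaining Ifitm genes did not pass: Ifitm6 differed by 1.04 (SE 0.60, adjusted p = 0.30), Ifitm1 by 0.49 (SE 0.57, adjusted p = 0.63) and Ifitm2 by 0.27 (SE 0.24, adjusted p = 0.51).

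With CDN2 (20 µg) all 7 genes changed between the first and the second dose, where 20.8% of all genes did. Mx1 differed by -1.90 (SE 0.43, edgeR adjusted p = 0.0060) and Mx2 by -1.33 (SE 0.28, edgeR adjusted p = 0.0042). The other 5 were higher: Ifitm3 by 1.85 (SE 0.24), Bst2 by 1.74 (SE 0.26), Ifitm2 by 1.27 (SE 0.25), Ifitm1 by 3.82 (SE 0.64) and Ifitm6 by 4.03 (SE 0.66), with edgeR adjusted p from 0.00059 to 0.0030. Without tumor 1 of the 2-dose group the values of Ifitm1, Ifitm6 and Ifitm2 were 2.91, 2.62 and 0.70, and that of Ifitm2 was no longer past the 2-fold limit. Mx2 was not called when only these 4 tumors were fitted (-1.32, adjusted p = 0.066).

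PBS tumors moved too. Between 1 and 2 doses of PBS, Bst2 differed by -2.11 (SE 0.26, edgeR adjusted p = 0.0014), Mx2 by -2.08 (SE 0.32, edgeR adjusted p = 0.0054) and Ifitm3 by -1.85 (SE 0.24, edgeR adjusted p = 0.0016), so that 3 of the 7 genes were lower, where 1.05% of all genes were. Mx1 differed by -2.03 (SE 0.47, adjusted p = 0.072) and was called without tumor 1 of the 2-dose group (-2.75, adjusted p = 0.043) and by DESeq2. Mx2 lost its call without tumor 2 of that group (-1.89, adjusted p = 0.12). Ifitm2 differed by 0.05 (95% interval -0.48 to 0.58), Ifitm1 by -1.56 (SE 0.67, adjusted p = 0.42) and Ifitm6 by -1.03 (SE 0.79, adjusted p = 0.77). Markers of some other cells were also lower in the PBS tumors given 2 doses, and others were not. Skeletal muscle markers were higher, at 48.7 and 89.5 CPM after 1 dose and at 138 and 252 CPM after 2. Melanoma markers were higher too, at 20191 and 19710 and then 23108 and 23271 CPM, and endothelial and monocyte sums overlapped. T cell markers summed to 7.35 and 9.43 CPM after 1 dose and to 1.82 and 0.854 CPM after 2, macrophage markers to 280.5 and 365 and then 164 and 145 CPM, and keratinocyte markers to 114.5 and 61.8 and then 0.429 and 0.0438 CPM, while Ifng averaged 1.24 and then 0.0204 CPM. Of these lists 1 of 6 T cell markers and no macrophage or keratinocyte marker was called lower, and their part in the fall was not tested. Ifitm3 and Bst2 were thus lower in PBS tumors and higher in agonist tumors after 2 doses, and the steps with agonist were not tested against the steps with PBS.

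**Figure D5:**
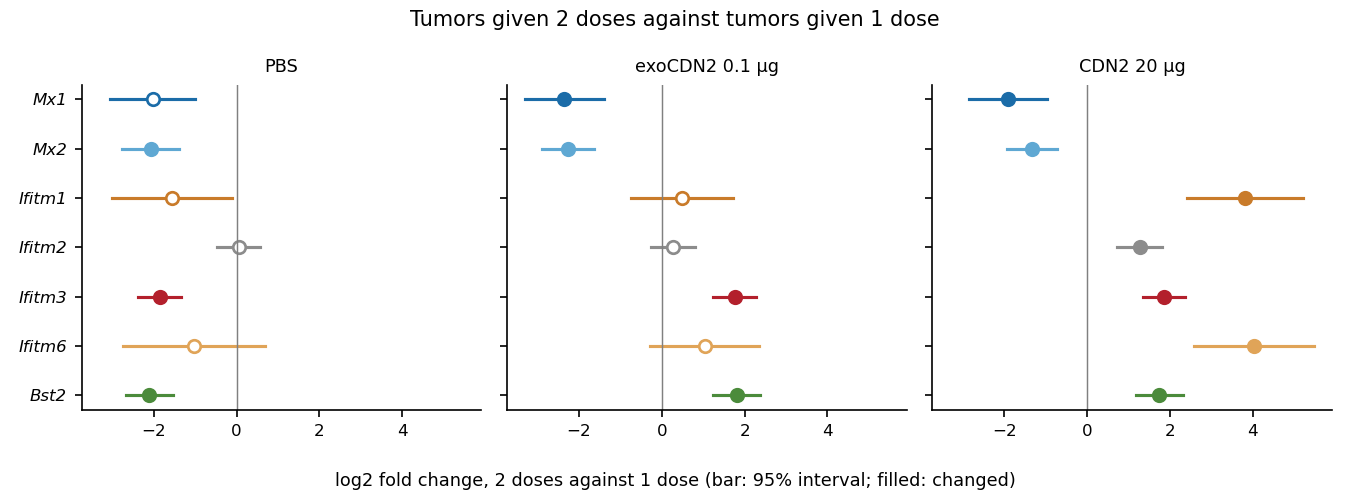
Log2 fold change of each gene in tumors given 2 doses against tumors given 1 dose of the same agent, with its 95% interval and filled points for called changes. Mx1 and Mx2 lie left of 0 in all 3 panels, whereas Ifitm3 and Bst2 lie left of 0 with PBS and right of 0 with exoCDN2 and CDN2 (20 µg).

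Whether the step from the first to the second dose differed between the 2 agonist forms was tested by an interaction term. Ifitm3 and Bst2 gave -0.10 (95% interval -0.80 to 0.61) and 0.07 (-0.71 to 0.85), and Mx1 gave -0.45 (-1.73 to 0.83). Mx2 gave -0.93 (SE 0.39, adjusted p = 0.13) and Ifitm2 -0.99 (SE 0.34, adjusted p = 0.081). Ifitm1, at -3.33 (SE 0.84, edgeR adjusted p = 0.033), and Ifitm6, at -2.99 (SE 0.86, edgeR adjusted p = 0.048), rose less with exoCDN2 than with CDN2, so 2 of the 7 genes were called in that direction, where 5.34% of all genes were. Neither was called without tumor 1 of the group given 2 doses of CDN2, at -2.46 (adjusted p = 0.084) and -1.62 (adjusted p = 0.17).

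Within families, proportions shifted along with the levels. The ratio of Mx1 to Mx2 CPM lay between 1.04 and 2.42 over the 18 tumors, a narrow band beside the span of each gene. Ifitm3 made up 27.8% to 85.4% of the summed CPM of the 4 Ifitm genes, and the rest was almost all Ifitm2, since Ifitm1 made up at most 0.775% and Ifitm6 at most 1.69%. Ifitm3 was 1.01 to 2.17 times Bst2 in CPM, on a scale that is not corrected for length.

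Likeness of pattern was measured as the mean absolute difference of centred log2 CPM over the 8 groups with a labelled amount, as a description of means that share their libraries. The nearest gene to Mx1 was Mx2, at 0.28, followed by Cxcl10 (0.34), which encodes a chemokine for T cells, and Cd69 (0.35), an early activation marker of lymphocytes. Mx2 lay nearest to Mx1, Cxcl10 (0.32) and Cmpk2 (0.37). Bst2 lay nearest to Gsdmd (0.087), the pore-forming executioner of pyroptosis, then to Milr1 (0.20) and Ccdc184 (0.21). Ifitm3 lay nearest to Xdh (0.18), which encodes xanthine dehydrogenase, Milr1 (0.19) and H2-T22 (0.20). Ifitm6 lay nearest to Il1r2 (0.19), a decoy receptor for interleukin-1, Srgn (0.24) and Jaml (0.24), and Ifitm1 to Samsn1 (0.21), Tnfrsf9 (0.27) and Traf1 (0.28). Some of these genes were scarce in PBS tumors given 1 dose, with Ccdc184 at 0.158, Cd69 at 0.654, Jaml at 0.655 and Il1r2 at 0.694 CPM. Their likeness rests on few counts there.

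Other genes of the pathway gave the setting. Of 25 further antiviral effectors 24 were tested, and the number called higher than PBS was 21 with exoCDN2, 20 with CDN2 (20 µg) and 16 with CDN2 (100 µg) after 1 dose, 0 with unloaded EVs, and 23 with either agonist after 2 doses. The shares of all genes were 2.2%, 2.26%, 1.82% and 0% in that order. After 2 doses they were 8.87% with exoCDN2 and 20% with CDN2 (20 µg). Their median log2 fold change was 2.40 with exoCDN2 after 1 dose, against 1.27 for the 7 genes and -0.02 for all genes tested, and 4.61 after 2 doses, against 3.94 and 0.0064. Both time courses occurred among them. Between the first and second dose of exoCDN2, 9 of the 24 were lower, Trim21 by -1.67 and Rsad2 by -2.63 among them, and 4 were higher, such as Oas3 by 2.19 and Zbp1 by 2.07. Of all genes, 7.44% changed either way in that comparison. In PBS tumors 15 of the 24 were lower after 2 doses, where 1.05% of all genes were.

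Of 41 interferons and genes of their signal 29 were tested, and 9 to 10 of them were higher than PBS in each CDN2 group of labelled amount. Some of the 29, such as Ifna2 and Ifna4, averaged 0 CPM in both PBS groups and with unloaded EVs. They passed the filter on low counts only through tumors given CDN2, so these counts of calls are not independent of the filter. Of all genes, 1.82% to 2.26% were higher in the groups given 1 dose. After 2 doses 8.87% were higher with exoCDN2 and 20% with CDN2 (20 µg). Ifnb1, the interferon that STING induces through IRF3, averaged 21.9 CPM after 1 dose of exoCDN2 and 34.1 CPM after CDN2 (20 µg), against 0.0893 and 5.72 CPM after 2 doses. The log2 difference between 2 doses and 1 dose of exoCDN2 was -7.99. Ifnb1 averaged only 0.125 and 0 CPM in the PBS groups given 1 and 2 doses, so the limit set by the filter holds for it too and no p is given. Irf7, the interferon-inducible factor that amplifies interferon production, was higher after 2 doses than after 1, by 1.43 with exoCDN2 (edgeR adjusted p = 0.0056) and by 2.01 with CDN2 at 20 µg (edgeR adjusted p = 0.00066). Of the 3 remaining Ifitm genes, Ifitm5 and Ifitm7 did not pass the filter. Ifitm10 passed it only through the tumors given 2 doses of exoCDN2 or CDN2 (20 µg). It had 26 to 32 counts there, against 1 to 11 in the other tumors of the main model and 5 and 4 in PBS tumors given 2 doses. A test of those same groups would not be independent of the filter, so none is given.

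The tumors given 2 doses of free CDN2 of unlabelled amount were fitted in a model of all 18 tumors. Mx1 was at 5.70 and 4.18 CPM, Mx2 at 3.02 and 3.49, Ifitm3 at 218 and 389 and Bst2 at 169 and 207 CPM. These values lay above the PBS tumors given 2 doses and far below those given CDN2 at 20 µg. Ifitm3 (2.27, SE 0.29, edgeR adjusted p = 0.00087), Bst2 (1.87, SE 0.26, edgeR adjusted p = 0.0018) and Mx2 (1.5, SE 0.31, edgeR adjusted p = 0.037) were higher than PBS, so 3 of the 7 rose where 0.918% of all genes did. Mx1 (1.54, SE 0.45), Ifitm1 (1.69, SE 0.69), Ifitm6 (1.67, SE 0.81) and Ifitm2 (0.29, SE 0.28) had adjusted p from 0.18 to 0.76. Against pooled PBS tumors none of the 3 was called, at 1.06, 0.46 and 0.11, and Mx2 also lost its call without the second tumor of the group (1.39, adjusted p = 0.27), without PBS tumor 1 (1.72, adjusted p = 0.059) and without PBS tumor 2 (1.31, adjusted p = 0.37).

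Against 2 doses of CDN2 (20 µg), all 7 genes were lower in the group of unlabelled amount, where 16.4% of all genes were lower. The log2 differences ran from -1.19 for Ifitm2 to -5.17 for Ifitm6, with -3.45 for Mx1, -3.74 for Mx2, -3.61 for Ifitm1, -2.37 for Ifitm3 and -2.46 for Bst2. Ifitm2 lost its call without tumor 1 of either group, at -0.83 and -0.63, and the value of Ifitm6 ran from -6.32 to -3.77 and that of Ifitm1 from -4.35 to -2.72 when 1 tumor was left out.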

How the data were processed

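RNA from 18 B16F10 tumors in 9 groups of 2 was analysed. Reads that passed the authors' quality filter were aligned with OSA (OmicSoft ArraySuite) to mm10, the GRCm38 build, and the authors deposited the RSEM expected counts of 50600 Ensembl genes without normalization. The values were rounded to whole counts here (8.75% to 12.7% per tumor were not whole). Totals ran from 21608895 to 65983630 counts per tumor, so the scarcest genes rested on few counts in some tumors, where counting error adds to the spread between tumors.

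Genes with at least 10 counts in 2 tumors and a total of 15 were kept by filterByExpr of edgeR 4.0.16 (R 4.3.3) and scaled by TMM. Quasi-likelihood models held 1 mean for each group. The main model took the 16 tumors of 8 groups (16927 genes, 14 comparisons), and a second took all 18 tumors (17110 genes) for the 2 comparisons with the group of unlabelled amount. P-values were two-sided and adjusted by Benjamini-Hochberg over all genes tested, and calls needed a difference of more than 2-fold with an adjusted p under 0.05. SE were the absolute log2 fold change over the root of F, and intervals are 95%. The test was checked on simulated counts. Symbols, positions and exon lengths came from GENCODE M21 (GRCm38), which gave 50376 genes a symbol, and promoter windows from RefSeq (GRCm38.p6). Promoter stretches are printed only where no annotated exon of the gene covers them, apart from the Ifitm3 stretch after the start. Shared windows are stretches of 75 bases of a gene's transcripts found in those of another gene. Likeness used a pseudocount of 0.05 CPM.

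The 7 genes, the lists of other antiviral effectors and of interferons and their signal, and the 14 marker lists were written from general knowledge, and all were chosen with earlier results of these data known. All 7 genes are given in every comparison, with the 3 genes of most like pattern and at most 3 called genes each way, by smallest p, of each list, and the genes most like Ifitm2 are not reported here. Alternatives were RLE factors, DESeq2 1.42.0, no filter, no limit on the ratio, pooled PBS tumors, other sets of tumors in the fit, the replicate number as a block, and each tumor left out in turn, when a lone tumor is assumed to vary like the other groups.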

Additional observations from a re-analysis of the deposited data

Results flagged for a closer look

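The change from the first to the second dose differed between the 2 forms of agonist in 2 of the 7 genes, by the interaction term of the edgeR quasi-likelihood fit. For Ifitm1 the change with exoCDN2 (0.1 µg) minus that with CDN2 (20 µg) was -3.33 on the log2 scale (SE 0.84, edgeR adjusted p = 0.033), and for Ifitm6 it was -2.99 (SE 0.86, edgeR adjusted p = 0.048). Neither gene was above 2.62 CPM in any tumor given 1 dose, and both lay between 6.77 and 40.1 CPM in the 2 tumors given 2 doses of CDN2 (20 µg). Those tumors also held the most neutrophil marker RNA, at 959.5 and 218.6 CPM summed over 7 genes. They held the most skeletal muscle marker RNA too, at 3367 and 1646 CPM, and the most plasmacytoid dendritic cell marker RNA, at 179 and 112 CPM. Their melanoma marker RNA was the lowest, at 7213 and 12518 CPM. The part of any of these lists in the difference was not tested. Leaving out tumor 1 of that group gave -2.46 for Ifitm1 (adjusted p = 0.084) and -1.62 for Ifitm6 (adjusted p = 0.17).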

How the results depend on the processing

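The number of the 7 genes called kept within 1.5 times its main value in 110 of 120 values under alternatives other than leaving out a tumor, and in 55 of 68 values with 1 tumor left out. Without the filter on low counts, it went from 2 to 4 for exoCDN2 against PBS after 1 dose, from 0 to 1 for exoCDN2 against CDN2 (20 µg) after 1 dose, from 3 to 5 for PBS after 2 doses against 1, and from 3 to 6 for the unlabelled amount against PBS. With only the groups compared in the fit, it went to 4 for exoCDN2 against PBS after 1 dose, from 4 to 0 for exoCDN2 against CDN2 after 2 doses, and from 2 to 0 for the difference between the dose steps of the 2 forms, which gave 1 when all 18 tumors were fitted. With PBS tumors pooled the count for the unlabelled amount was 0. With 1 tumor left out, it ran from 0 to 4 for exoCDN2 against CDN2 after 2 doses, was 0 each time for CDN2 (100 µg) against 20 µg, and ran from 0 to 3 for the difference between the dose steps. The causes were not tested. Over all genes, 42 of 120 counts of calls moved by more than 1.5 times, such as 3279 genes for exoCDN2 against CDN2 after 2 doses, which ran from 30 to 6337.

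Replicate numbers were not stated to pair tumors. With the replicate number as a block, 1 gene in place of 2 was called for the difference between the dose steps, and no other count of called members changed. Deviations of same-numbered tumors correlated at a mean of 0.0136 over 36 pairs of groups, from -0.18 to 0.32, and crossing the numbers where the correlation was under -0.1 left 7 of 7 called in each of 3 comparisons.

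No value that passed the test changed direction. With PBS pooled, Ifitm1 turned to 0.51 for CDN2 (20 µg) after 1 dose and Bst2 to 0.47 for exoCDN2. Bst2 turned to -0.0046 for the difference between the dose steps with RLE factors and with DESeq2. With 1 tumor left out, values that crossed 0 ran as follows. Against PBS after 1 dose, Ifitm1 ran from -0.64 to 0.37 with CDN2 (20 µg) and from -0.17 to 0.49 with 100 µg, and with unloaded EVs Mx1 ran from -0.55 to 1.04, Mx2 from -0.46 to 0.49, Ifitm1 from -0.39 to 0.53 and Ifitm2 from -0.079 to 0.20. Against PBS after 2 doses, Ifitm2 ran from -0.12 to 0.23 with exoCDN2 and from -0.14 to 0.63 with the unlabelled amount. For exoCDN2 against CDN2 after 1 dose, Mx1 ran from -0.043 to 0.55, Mx2 from -0.36 to 0.27 and Ifitm6 from -0.18 to 0.83, and after 2 doses Mx1 ran from -0.49 to 0.015. For 100 against 20 µg, Mx1 ran from -0.32 to 0.29 and Ifitm1 from -0.16 to 0.84. For 2 doses against 1, Ifitm1 ran from -0.24 to 0.98 with exoCDN2 and Ifitm2 from -0.14 to 0.21 with PBS. For the difference between the dose steps, Ifitm3 ran from -0.23 to 0.061 and Bst2 from -0.10 to 0.27. Groups of 2 tumors limit the precision, as do the low counts of Ifitm1 and Ifitm6 in PBS tumors.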
